A study of Mus musculus with 5 samples.

Results

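Mural cells, the pericytes and smooth muscle cells that wrap blood vessels, were examined in single-cell RNA sequencing of the mouse hippocampus at postnatal day 1. They were selected on measured RNA counts. A cell was chosen when it held at least 4 unique molecular identifiers (UMIs, each a counted mRNA molecule) over Rgs5, Kcnj8, Abcc9 and Pdgfrb, from at least 2 of these 4 genes. It could hold at most 1 UMI of the endothelial gene Cldn5 and at most 2 of the fibroblast gene Dcn. Among 30699 cells with at least 1000 UMIs, at least 500 genes and at most 15% mitochondrial UMIs, 283 met this rule.

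The study asked, per its title, how Trem2 in microglia bears on the energy metabolism of developing neurons. Trem2 is a surface receptor of microglia. There were 3 libraries from wild-type pups (Trem2 +/+, numbered 1, 2 and 3) and 2 from Trem2 knockout pups (Trem2 -/-, numbered 2 and 3). Each library pooled the hippocampi of 2 pups, so single animals cannot be told apart. The sample descriptions put 2 males in both libraries numbered 2 and a female with a male in the other 3, while a separate sex label reads male and female everywhere. The labels name no strain, drug, transgene or Cre line. P-values below measure the spread between these libraries, and with 3 against 2 the smallest p of an exact permutation test is 0.1.

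Pericytes share a basement membrane with the endothelium of capillaries, while smooth muscle cells ring the arterioles. Endothelial PDGF-B, read by the receptor that Pdgfrb encodes, recruits pericytes to growing vessels, and Notch and TGF-beta signals help them mature. In the brain they are known for regulating the blood-brain barrier and capillary flow. Kcnj8 and Abcc9 encode the pore and the regulatory subunit of an ATP-sensitive potassium channel, and lie next to each other on mouse chromosome 6 (GENCODE M21, mm10: Kcnj8 at 142564837 to 142571614 and Abcc9 at 142587862 to 142702315, both on the minus strand). Rgs5 encodes a regulator of G protein signalling.

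The rule admitted more than pericytes. Vtn, Higd1b, Ndufa4l2 and Notch3 are pericyte genes that the rule did not use, and Slc1a3 (a glutamate transporter) and Fabp7 (a fatty acid binding protein) mark astrocytes and radial glia. The members were divided on these genes after the values were seen, so the division is a description. With at least 2 UMIs over the 4 pericyte genes and under 20 over the 2 glial genes, 220 members (77.7%) carried pericyte genes. They are called pericyte-gene members here. With the reverse pattern, 49 members (17.3%) carried glial genes, 12 carried both and 2 carried neither.

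Pericyte-gene members held a median of 62 UMIs of the 4 rule genes (range 4 to 166) and 37.5 UMIs of the 4 other pericyte genes. Their median for Slc1a3 and Fabp7 together was 1 UMI. Kcnj8 was seen in 91.8% of them, Abcc9 in 88.2% and Pdgfrb in 95.9%. All of these genes took part in the choice or the division of the cells, so the values describe the set and are no check of its label.

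Glial-gene members held a median of 5 UMIs of the rule genes (range 4 to 17), 0 of the 4 other pericyte genes and 197 of Slc1a3 and Fabp7. They passed through Rgs5 and Pdgfrb: 48 of 49 held only these 2 of the 4 rule genes, 1 held Kcnj8 and none held Abcc9 (0 of 49, which allows up to 6.12%). For these cells the label goes against the data, and they are named by their genes only. They were 0.722% of all cells with that glial pattern, in which Rgs5 was seen in 14.7% to 18.7% of the cells not chosen, at median depths of 7323 to 9450 UMIs. In excitatory neurons, which should lack it, Rgs5 was seen in 1.40% to 3.75%, at 8656 to 10932 UMIs. These neurons were chosen with at most 1 UMI of the 4 rule genes together. Their value is thus held down by the choice and is no measure of background.

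**Figure D1:**
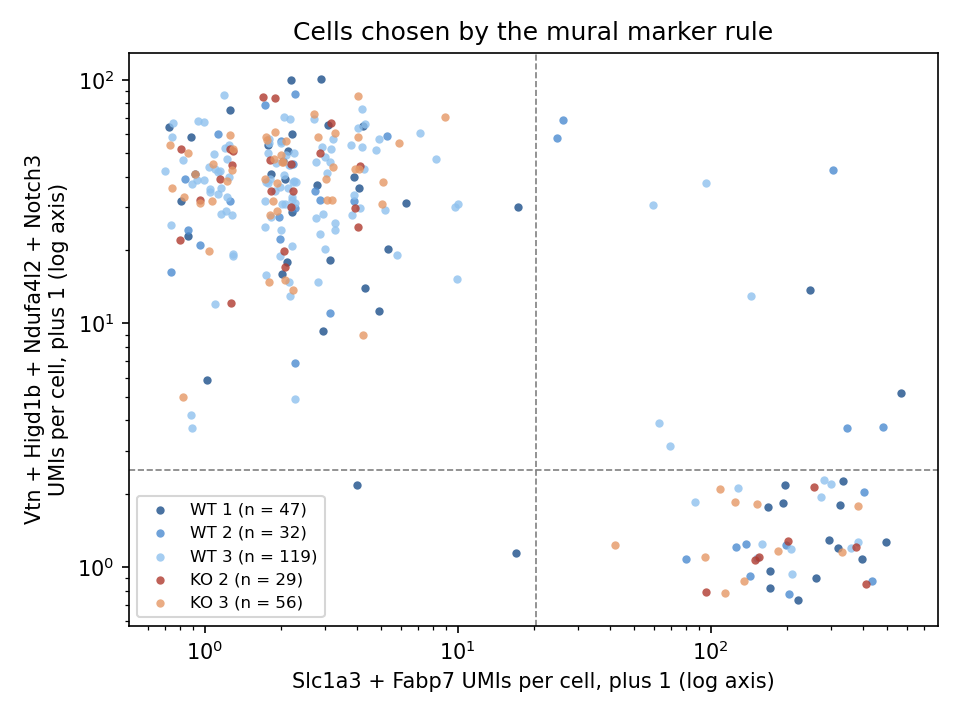
Each point is 1 of the 283 members, coloured by library, with UMIs of Slc1a3 and Fabp7 on the horizontal axis and UMIs of Vtn, Higd1b, Ndufa4l2 and Notch3 on the vertical axis, both plus 1 on log axes with a small random shift. The dashed lines mark the divisions at 20 and 2 UMIs: 220 cells lie at the upper left, 49 at the lower right and 12 at the upper right.

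The cells nearest the threshold were mostly of the glial kind. Of 18 members with exactly 4 UMIs of the rule genes, 14 carried glial genes and 1 carried pericyte genes. Just outside, 46 cells had 3 UMIs from at least 2 genes, with 34 of the glial and 1 of the pericyte kind. A further 278 cells had 4 or more UMIs of a single rule gene, and 222 of these carried glial genes and 4 pericyte genes. Among members with 81 or more rule UMIs, 65 of 66 carried pericyte genes. Dcn removed 29 cells that met the other limits, of which 11 carried pericyte genes.

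Cldn5 removed more barcodes than the rule kept. Counted without the Dcn limit, 374 barcodes met the marker count but held more than 1 Cldn5 UMI. They were 56.9% of the 657 barcodes that they and the members make up. Their median was 159 UMIs of Cldn5, 74 of the rule genes and 43.5 of the other 4 pericyte genes, and 366 of them had at least 2 UMIs of those 4. They were large, with a median of 31987.5 UMIs against 6151 in members. Scrublet, a doublet caller, marked 87 of the 374 (23.3%) and 34 of the 283 members. Whether these barcodes held 1 cell or several was not tested.

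In 4 of the 5 libraries the left-out barcodes held more of the rule genes' UMIs than the members did. Members held 20.9%, 10.6% and 50.2% of these UMIs in wild-type libraries 1, 2 and 3, and 17.3% and 30.0% in knockout libraries 2 and 3. The left-out barcodes held 58.2%, 76.4% and 36.5%, then 67.7% and 61.0%. Only wild-type library 3 had more in members. The counts below therefore describe the barcodes that the rule kept, glial-gene members included, and not all mural cells of the tissue. The rule allowed some endothelial RNA, and 75 members (26.5%) held at least 1 UMI of Cldn5, Pecam1 or Flt1.

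Members numbered 47 of 6365 cells in wild-type library 1, 32 of 4716 in library 2 and 119 of 8510 in library 3. They numbered 29 of 5601 in knockout library 2 and 56 of 5507 in knockout library 3. As shares these are 0.738%, 0.679% and 1.40%, then 0.518% and 1.02%, and the genotypes overlapped. The mean share was 0.938% ± 0.399 (SD, n = 3) in wild type and 0.767% ± 0.353 (SD, n = 2) in knockout (two-sided exact permutation p = 0.7). Exact 95% intervals, which cover counting error only, run from 0.347% to 0.743% for the lowest share and from 1.16% to 1.67% for the highest.

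Wild-type library 3 gave 103 of the 220 pericyte-gene members. The other libraries gave 30 and 19 in wild type and 22 and 46 in knockout. Glial-gene members were 13, 8 and 11 in wild type and 7 and 10 in knockout, or 27.7%, 25.0%, 9.24%, 24.1% and 17.9% of members. Cells with both gene sets numbered 2, 5 and 5 in wild type. The knockout libraries had 0 of 29 and 0 of 56, which allows shares of up to 10.3% and 5.36%, and this difference was not tested. Adding the left-out Cldn5 barcodes brought the share of kept cells to 1.70%, 2.67% and 2.34% in wild type and 1.66% and 2.38% in knockout.

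**Figure D2:**
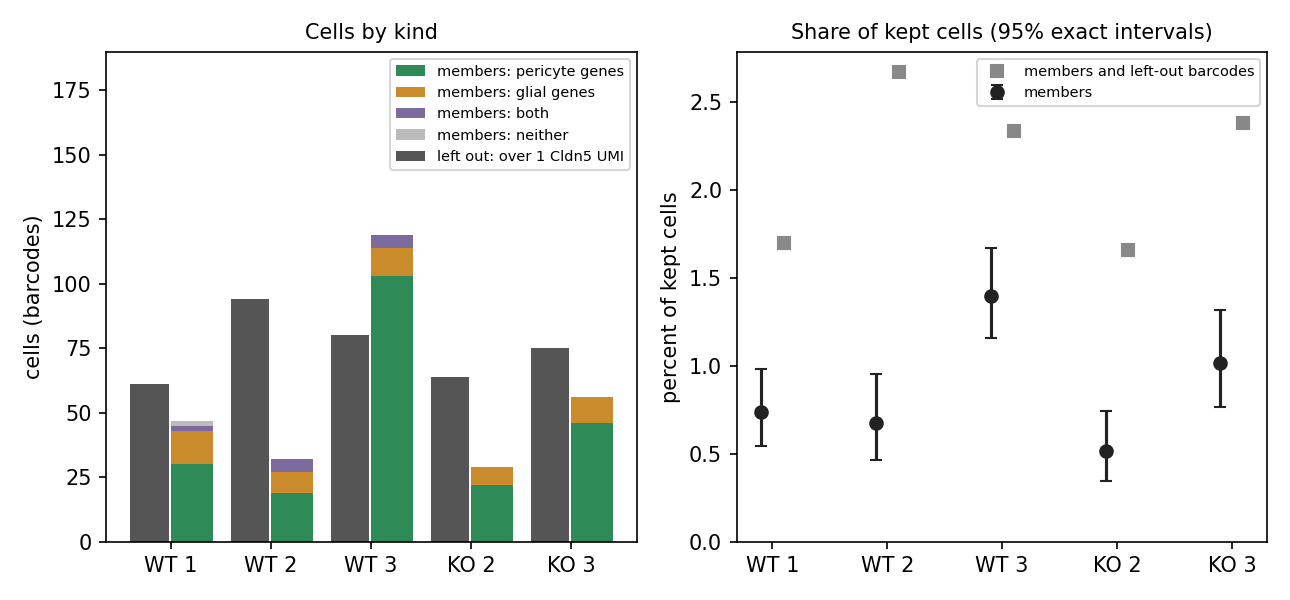
Left, counts of barcodes per library: the dark bar gives barcodes left out for more than 1 Cldn5 UMI, and the stacked bar gives members by the genes they carry. Right, members as a percent of kept cells with exact 95% intervals (circles), and members plus left-out barcodes (squares). Wild-type library 3 has the most members (119) and knockout library 2 the fewest (29).

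The median depth of a member was 7448, 8909.5 and 5789 UMIs in wild type and 6447 and 6283 in knockout (7382 ± 1561 SD, n = 3, against 6365 ± 116 SD, n = 2; exact permutation p = 0.6). In pericyte-gene members the medians were 5133, 4023 and 5511, then 5086.5 and 5829. Between any pair of libraries 12 to 26 barcodes were shared among all barcodes deposited, before the cell limits, and none was a member in both. Markers of microglia were near absent in the members, at 15.9 to 57.7 CPM (the UMIs of a gene per 1000000 UMIs of the summed cells) for 16 genes together. Trem2 gave 1 UMI over all 283 members, in wild-type library 3, so the knockout could not be checked in these cells.

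The label was checked on the 26 genes of a pericyte identity list that neither the rule nor the division used. In pericyte-gene members they summed to 6913, 4469 and 6211 CPM in wild type and 6984 and 7625 CPM in knockout, above every library of the other groups. Fibroblasts gave 2646 to 3077 CPM, glial-gene members 1059 to 1553 CPM, endothelial cells 594 to 832 CPM and neurons 153 to 230.0 CPM. Among them Atp13a5 was at 238, 134 and 230.4 CPM, then 252 and 312 CPM, and Art3 at 197, 158 and 273 CPM, then 325 and 280 CPM, and both were at 0 CPM in glial-gene members of every library. Contrasts between cell groups chosen by their RNA are descriptions and were not tested.

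The genes of the division are given as a description. Higd1b, a hypoxia-inducible domain family member, was at 1999, 1361 and 1619 CPM in wild type and 1935 and 2262 CPM in knockout. It reached at most 4.12 CPM in endothelial cells, 5.70 CPM in fibroblasts and 0.301 CPM in excitatory neurons. Genes outside the rule and above a minimum level in the members of every library were ranked. Over all members Higd1b had the highest lowest-over-libraries ratio to those 3 groups among them, 5.80 on the log2 scale.

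Next by that ratio came Gucy1a1 (4.32), Art3 (3.72), Adap2 (3.71), Cspg4 (3.45), Atp13a5 (3.34), Cox4i2 (3.34), Notch3 (3.32), Tbxa2r (3.04) and Tbx2 (2.86). Gucy1a1 encodes a subunit of the nitric oxide receptor guanylate cyclase, Cspg4 the proteoglycan NG2, Atp13a5 a cation-transporting ATPase and Tbxa2r the thromboxane receptor. Gfap, an astrocyte filament gene, was also on this list (2.69). Its level was 513, 575 and 128 CPM in wild-type and 89.4 and 126 CPM in knockout members, but 0 to 15.5 CPM in pericyte-gene members, so it came with the glial-gene members.

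Vtn, which encodes vitronectin, was at 2983, 1799 and 2899 CPM in wild-type pericyte-gene members and 2631 and 2558 CPM in knockout. Fibroblasts also carried it, at up to 2139 CPM, so Vtn did not set pericytes apart from them. Notch3, the main Notch receptor of mural cells, was at 321, 222 and 235 CPM and then 245 and 303 CPM, against at most 11.9 CPM in fibroblasts. Cspg4 was at 399, 204 and 331 CPM in wild type and 252 and 543 CPM in knockout. Library 2 was the lowest of its genotype for Higd1b, Notch3 and Cspg4, and for Vtn in wild type.

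With the 4 genes of the division included, the 30 identity genes summed to 13130, 8534 and 12000 CPM in wild-type pericyte-gene members and 12920 and 13850 CPM in knockout. Endothelial cells gave 601 to 834 CPM for the same genes and neurons 157 to 239 CPM. Wild-type library 2 was lowest. In it the 16 neuron markers summed to 6764 CPM in pericyte-gene members, against 2029 to 3426 CPM in the other libraries, and its part in the lower level was not tested.

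**Figure D3:**
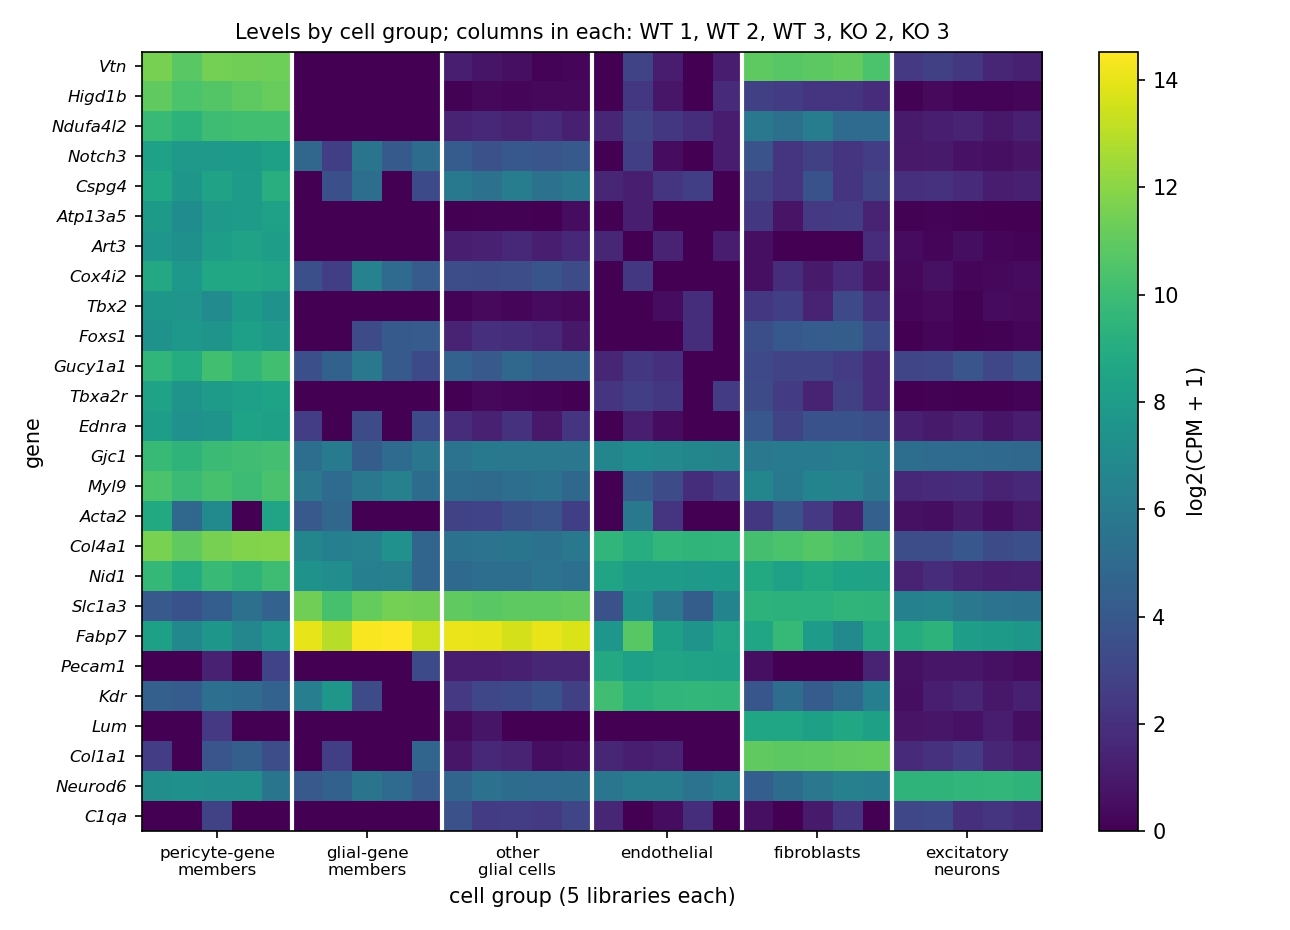
Each row is a gene and each column a library within a cell group, coloured by log2(CPM + 1) of summed UMIs. Pericyte genes (top rows) are brightest in pericyte-gene members, though fibroblasts share Vtn (1393 to 2139 CPM). Slc1a3 and Fabp7 are bright in glial-gene members, and Acta2 differs between libraries from 0 to 445 CPM.

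Smooth muscle cells were few. Members were gated on Acta2 (smooth muscle actin), Tagln (transgelin), Myh11 (smooth muscle myosin) and Cnn1 (calponin), with at least 3 UMIs from at least 2 of the 4 genes. After thinning each cell to 2000 UMIs, 2 of 43, 0 of 31 and 3 of 111 members passed in wild type, and 0 of 28 and 5 of 53 in knockout. A count of 0 allows a share of up to 9.68% in wild-type library 2 and 10.7% in knockout library 2. The mean was 2.45% ± 2.34 (SD, n = 3) against 4.72% ± 6.67 (SD, n = 2), exact permutation p = 0.7. No neuron passed in any library (0 of 3752 in the largest, which allows up to 0.0800%).

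Without thinning, 5 of 47, 4 of 32 and 5 of 119 wild-type members passed, and 0 of 29 and 6 of 56 knockout members. These 20 cells held 97.2% of the Acta2 UMIs and 90.0% of the Myh11 UMIs of all members. A few cells carried most of the signal: 7 of the 20 had 20 or more UMIs of the 4 genes, with a maximum of 118 in a cell of wild-type library 1. In that library a single cell held 70 of 90 Acta2 UMIs. Of the 20 cells, 16 were pericyte-gene members. Cnn1 was nearly absent, with 1 UMI in all members, and Myh11 gave 20 UMIs in 9 cells.

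**Figure D4:**
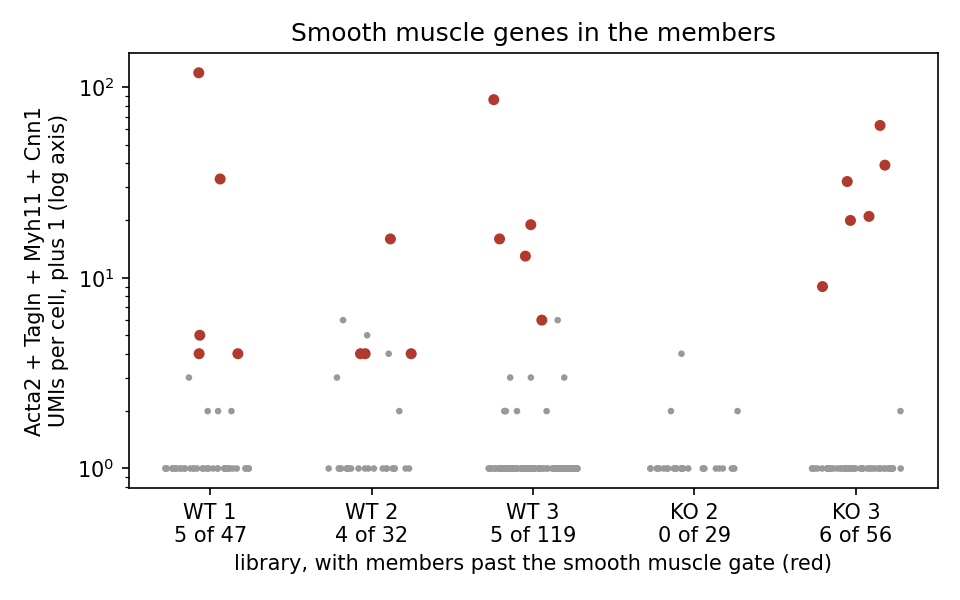
Each point is a member, placed by library, with its UMIs of Acta2, Tagln, Myh11 and Cnn1 plus 1 on a log axis. Red points passed the gate without thinning. Knockout library 2 has no such cell, and the other libraries have 4 to 6.

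Acta2 in pericyte-gene members was thus uneven, at 445, 29.2 and 117 CPM in wild type and 0 and 362 CPM in knockout. The genotypes overlapped fully (log2 fold change 0.12, SE 0.86). Contractile genes that pericytes share with smooth muscle were steadier. Cald1, which encodes the actin-binding caldesmon, was at 3552, 2372 and 3710 CPM, then 3075 and 3955 CPM. Myl9, a myosin light chain, was at 1362, 970 and 1261 CPM, then 1014 and 1318 CPM. Gated and other members were also compared with the glial-gene members left out, in the libraries that then held at least 5 gated cells, wild-type 3 and knockout 3. Outside the genes of the gate, the largest lowest-over-libraries log2 ratios were those of Tpm2 (2.15) and Tpm1 (1.44), both tropomyosins. Serping1 (1.33), which encodes an inhibitor of complement, and Ccnd2 (1.33), a cyclin, came next, then Des (1.19), which encodes desmin, and Map1b (1.17), a microtubule-associated protein common in neurons.

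Some members carried genes of dividing cells. A member was counted with at least 2 UMIs over 8 genes of the cell cycle (Mki67, Top2a, Cdk1, Ccnb1, Ccna2, Birc5, Cenpf and Ube2c) from at least 2 of them, after thinning to 2000 UMIs. The counts were 6 of 43, 5 of 31 and 11 of 111 in wild type and 5 of 28 and 5 of 53 in knockout. The means were 13.3% ± 3.16 (SD, n = 3) and 13.7% ± 5.96 (SD, n = 2), exact permutation p = 1. In excitatory neurons, which have left the cycle, 0.852% to 2.45% passed. In pericyte-gene members alone the shares were 11.5%, 11.1% and 8.42%, then 14.3% and 6.98%. Without thinning the shares in all members were 17.0%, 37.5%, 12.6%, 20.7% and 12.5%, in the same order of libraries.

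Knockout and wild-type members were compared on UMIs summed per library, with edgeR's quasi-likelihood test over all genes. No gene passed an adjusted p of 0.05 among 7634 tested (0%). At an unadjusted p under 0.05 there were 141 genes higher in knockout (1.85%) and 263 lower (3.45%). DESeq2 called 5 genes (0.0655%), all lower. The groups did not overlap, with both knockout libraries above every wild-type library, for 853 genes (11.2%), and below for 916 (12%). In pericyte-gene members, with 4081 genes fitted, the same held for 432 genes above (10.6%) and 431 below (10.6%), and edgeR and DESeq2 each called 0, with 183 and 59 genes at an unadjusted p under 0.05.

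The count over all members depended on wild-type library 3. Without it edgeR called 141 genes, 38 higher and 103 lower, among them Igfbpl1, Neurod1, Atf3, Clu, Ecrg4, Tekt1 and 1700007K13Rik (lower) and Kcne4, Heyl, Tgfb1, Foxs1, Col4a1, Lamb1, Art3 and Gjc1 (higher). Within pericyte-gene members it called 0 without that library, and 3 without knockout library 2 (Igfbpl1 and Epha5 lower, Calb2 higher).

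The mix of cells differed between these sums. Glial-gene members held 43.0%, 36.4% and 12.3% of members' UMIs in wild type and 29.0% and 27.6% in knockout, and members with both gene sets 8.89%, 29.5% and 9.55%, then 0% and 0%. Values in pericyte-gene members are therefore given beside those over all members. The 14 astrocyte and radial glia markers summed to 21710, 15000 and 8628 CPM over all wild-type members and 13550 and 9092 CPM in knockout, and to 1268 to 1968 CPM in pericyte-gene members. In pericyte-gene members 17 endothelial markers summed to 450 to 947 CPM and 15 fibroblast markers to 1022 to 2071 CPM. Microglial genes summed to 23.4 to 69.4 CPM. A sum over cells mixes the number of cells of a kind with the RNA in each, and alone it does not separate them. Counts of cells by kind and median depths per library are given above.

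The 5 genes that DESeq2 called are named because of that call, after their values were seen. They were Igfbpl1, Clu (clusterin), Ecrg4 (a secreted peptide precursor), Tekt1 (a tektin of cilia) and 1700007K13Rik. Clu was at 701, 844 and 312 CPM in wild-type members and 165 and 126 CPM in knockout, with no overlap (log2 fold change -2.11, SE 0.42, DESeq2 adjusted p = 0.00243). In pericyte-gene members Clu was at 5.18, 17.5 and 7.38 CPM, then 6.63 and 3.29 CPM, and the groups overlapped. Ecrg4 went from 506, 613 and 168 CPM in wild-type members and 75.2 and 102 CPM in knockout to at most 20.7 CPM in pericyte-gene members. Tekt1 and 1700007K13Rik were likewise at most 2.95 and 6.63 CPM there. Over all members Tekt1 was seen in 11 cells, with 37 of its 96 UMIs in 1 cell of wild-type library 2. The gene 1700007K13Rik was seen in 13 cells, with 51 of its 196 UMIs in 1 cell of the same library. Within the members, the differences of Clu, Ecrg4, Tekt1 and 1700007K13Rik thus lay outside the pericyte-gene set. Clu and Ecrg4 were also lower in knockout, without overlap, over all kept cells. There Clu was at 146, 159 and 134 CPM in wild type and 91.2 and 92.3 CPM in knockout. Ecrg4 was at 101.5, 123 and 106 CPM, then 70.1 and 79.0 CPM.

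Igfbpl1, an insulin-like growth factor binding protein-like gene, had the smallest p in edgeR. Its level was 378, 503 and 248 CPM in wild-type members and 65.8 and 28.6 CPM in knockout (log2 fold change -3.11, SE 0.45, edgeR adjusted p = 0.337; DESeq2 adjusted p = 6.78e-07). In pericyte-gene members it was at 202, 310 and 162 CPM, then 86.1 and 19.7 CPM (log2 fold change -2.29, SE 0.51), again without overlap. Over all kept cells Igfbpl1 did not follow this order, with 788 to 871 CPM in wild type and 972 and 798 CPM in knockout. Neurons carried it at 1131 to 1478 CPM. In endothelial cells it was at 108, 235 and 151 CPM, then 62.0 and 82.2 CPM, and in fibroblasts the groups overlapped.

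Neurod1, a transcription factor of young neurons, was at 64.1, 31.8 and 58.9 CPM in wild-type members and 4.70 and 7.14 CPM in knockout (log2 fold change -3.00, SE 0.58, edgeR adjusted p = 0.784). In pericyte-gene members it was at 72.5, 81.8 and 60.6 CPM, then 6.63 and 9.86 CPM, with no overlap. Over all kept cells it was at 256 to 305 CPM in wild type and 287 and 261 CPM in knockout. In excitatory neurons it was lower in knockout without overlap, at 568, 505 and 463 CPM, then 422 and 404 CPM. The same held in cells with the glial pattern that were not chosen, at 16, 17.5 and 22.7 CPM, then 10.9 and 15.3 CPM. In endothelial cells and in fibroblasts the groups overlapped. Of the 12 neuron markers tested in pericyte-gene members, 12 had a lower estimate in knockout, with a median of -0.72 (0.0015 over all genes), and 4 did not overlap below (10.6% over all genes). The sum of the 16 markers did overlap, at 3356, 6764 and 3369 CPM in wild type and 3426 and 2029 CPM in knockout. The part of neuronal RNA in these values was not tested.

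Atf3, an immediate early transcription factor, was at 82.5, 111 and 77.4 CPM in wild-type members and 9.41 and 21.4 CPM in knockout (log2 fold change -2.40, SE 0.42, edgeR adjusted p = 0.784). In pericyte-gene members it was at 31.1, 23.4 and 44.3 CPM, then 13.2 and 23.0 CPM. Among the other immediate early genes, Nr4a1, a nuclear receptor gene, was also without overlap and lower there, at 181, 169 and 165 CPM, then 146 and 148 CPM. Egr1 was at 347, 391 and 487 CPM in wild type and 603 and 730 CPM in knockout, and Fos at 699, 824 and 1055 CPM, then 729 and 1055 CPM. Of the 18 tested in pericyte-gene members, 10 had a higher and 8 a lower estimate, with a median of 0.03, and 3 did not overlap above and 1 below (10.6% each over all genes).

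Kcne4, which encodes an accessory subunit of potassium channels, had the smallest p among genes with a higher estimate in knockout. It was at 22.9, 19.9 and 45.0 CPM in wild-type members and 94.1 and 83.3 CPM in knockout (log2 fold change 1.50, SE 0.39, edgeR adjusted p = 0.792). In pericyte-gene members Kcne4 was at 51.8, 40.9 and 53.2 CPM, then 132 and 115 CPM (log2 fold change 1.28, SE 0.32), again without overlap. Endothelial cells gave 0 CPM in every library and fibroblasts 16.7 to 34.9 CPM. Gmnn, which encodes the replication licensing inhibitor geminin, was at 29.8, 15.9 and 26.6 CPM, then 79.9 and 57.1 CPM (log2 fold change 1.45, SE 0.38, edgeR adjusted p = 0.792).

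Hey2, a transcriptional repressor downstream of Notch, was at 46.6, 58.4 and 44.3 CPM in wild-type pericyte-gene members and 92.8 and 98.6 CPM in knockout. Over all members its log2 fold change was 1.19 (SE 0.31, edgeR adjusted p = 0.792), and in pericyte-gene members 0.99 (SE 0.34). Heyl, a related repressor, was at 176, 58.4 and 202 CPM, then 265 and 237 CPM (log2 fold change 0.68, SE 0.35). The receptor Notch1 was at 186, 87.6 and 230.4 CPM, then 278 and 283 CPM, while Notch3 overlapped, with a log2 fold change of 0.09 (SE 0.25). Hes1, a further target, overlapped too (0.08, SE 0.23). Of 9 genes in the Notch list tested in pericyte-gene members, 8 had a higher estimate (median 0.42, against 0.0015 over all genes) and 3 did not overlap above (10.6% over all genes). Over all members it was 9 of 12 (median 0.52), and 0 of these passed in edgeR, with 1 at an unadjusted p under 0.05.

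Receptors and channels of vessel tone were described next. Ednra, the endothelin A receptor, was at 280, 164 and 186 CPM in wild-type pericyte-gene members and 345 and 303 CPM in knockout (log2 fold change 0.62, SE 0.26). Over all members its log2 fold change was 1.00 (SE 0.32, edgeR adjusted p = 0.792). Ano1, a calcium-activated chloride channel, was at 36.2, 29.2 and 41.4 CPM, then 86.1 and 88.8 CPM (1.21, SE 0.35, in pericyte-gene members). Gucy1a1 overlapped, at 761, 514 and 1127 CPM, then 749 and 1121 CPM. Among 15 such genes tested in pericyte-gene members 14 had a higher estimate (median 0.34, against 0.0015 over all genes), and 4 did not overlap above (10.6% over all genes). Over all members it was 17 of 18 (median 0.52), with 0 called by edgeR and 2 at an unadjusted p under 0.05.

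The rule genes themselves are given as a description, since they chose the cells. Kcnj8 was at 849, 608 and 876 CPM in wild-type pericyte-gene members and 1358 and 1190 CPM in knockout, and Pdgfrb at 1005, 648 and 879 CPM, then 1060 and 1368 CPM. Abcc9 overlapped, at 559, 216 and 677 CPM, then 616 and 832 CPM. Rgs5 overlapped as well, at 7364, 3867 and 7375 CPM, then 6249 and 7605 CPM. The exclusion genes were low, with Cldn5 at 0 to 16.4 CPM and Dcn at 0 to 5.91 CPM.

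Pericyte identity genes were compared as a list. Over all members 29 of its 30 genes had a higher estimate in knockout (median 0.64, against -0.0033 over all genes tested), and 13 did not overlap above (11.2% over all genes). Among pericyte-gene members it was 30 of 30, with the smaller median of 0.31 against 0.0015, and 10 did not overlap above (10.6% over all genes). In edgeR 0 of 30 passed in either set, and 6 and 2 were at an unadjusted p under 0.05. Mcam, an adhesion molecule, was at 373, 240 and 207 CPM in wild type and 404 and 371 CPM in knockout, and overlapped. Foxs1, a forkhead factor, was at 176, 216 and 186 CPM, then 298 and 230.2 CPM. Vtn had a log2 fold change of 0.01 (SE 0.20).

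Genes of dividing cells were compared as a list too. Over all members 19 of 21 had a higher estimate in knockout (median 0.52) and 4 did not overlap above (11.2% over all genes). In pericyte-gene members it was 8 of 13 (median 0.14), with 1 above and 1 below without overlap (10.6% each over all genes). edgeR called 0 in either set, with 2 and 0 at an unadjusted p under 0.05. Cenpf, a kinetochore gene, had a log2 fold change of 0.73 (SE 0.30) over all members and -0.19 (SE 0.36) in pericyte-gene members. Mki67 was at 114, 123 and 91.6 CPM in wild-type pericyte-gene members and 172 and 151 CPM in knockout.

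Pericyte signals to the endothelium and from it were measured in part. Ptn (pleiotrophin), a growth factor that pericytes secrete, was at 4412, 3172 and 5635 CPM in wild-type pericyte-gene members and 5268 and 6066 CPM in knockout. Ptn was not particular to them, since all 49 glial-gene members carried it and held 29.9% of its UMIs over all members. Igf2, also among the fibroblast markers used here, was at 870.0, 567 and 1118 CPM, then 861 and 1384 CPM. The 24 genes of the angiopoietin, S1P and VEGF list, which holds both, summed to 6928 to 12250 CPM in pericyte-gene members. In fibroblasts they summed to 13110 to 19100 CPM. Angpt1, the ligand of the endothelial receptor Tie2, was low and overlapped, at 77.7, 23.4 and 76.8 CPM, then 39.8 and 65.8 CPM. The gap junction gene Gjc1 (connexin 45) was at 922, 701 and 941 CPM, then 1100 and 1157 CPM, with a log2 fold change of 0.38 (SE 0.19). Tgfb1, the TGF-beta ligand, was at 82.9, 58.4 and 93.1 CPM, then 172 and 154 CPM (0.98, SE 0.28).

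In the PDGF list the ligand gene Pdgfa went the other way, at 88.0, 117 and 57.6 CPM in wild-type pericyte-gene members and 33.1 and 42.7 CPM in knockout (log2 fold change -1.05, SE 0.45). Over all members Pdgfa had a log2 fold change of -1.11 (SE 0.40, edgeR adjusted p = 0.855). In the PDGF list 6 of 10 genes had a higher estimate over all members (median 0.08) and 4 of 9 in pericyte-gene members (median -0.03). The TGF-beta and BMP list had 9 of 15 higher over all members (median 0.11) and 6 of 9 in pericyte-gene members (median 0.22). For the angiopoietin, S1P and VEGF list the counts were 8 of 16 (median 0.01) and 9 of 11 (median 0.26). edgeR called 0 genes in each of these 3 lists in either set. Over all members, at an unadjusted p under 0.05 there were 1, 3 and 3 genes in the order PDGF, TGF-beta and angiopoietin.

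The 32 basement membrane and matrix genes summed to 16000, 9872 and 15590 CPM in wild-type pericyte-gene members and 15140 and 17530 CPM in knockout. Fibroblasts gave 10860 to 13970 CPM and endothelial cells 6936 to 10290 CPM, so the ranges overlapped. Col4a1, a collagen IV chain, was at 3086, 2004 and 3029 CPM in wild-type pericyte-gene members and 3552 and 3637 CPM in knockout (log2 fold change 0.40, SE 0.19), against 529 to 794 CPM in endothelial cells. Lamb1, a laminin chain, was at 362, 286 and 393 CPM, then 510.2 and 533 CPM (0.56, SE 0.21). Both were without overlap. Sparc overlapped, at 2418, 1601 and 2449 CPM, then 2253 and 2476 CPM. Of 25 genes tested in pericyte-gene members 23 had a higher estimate (median 0.20), and 3 did not overlap above (10.6% over all genes). Over all members it was 23 of 29 (median 0.39), with 0 called by edgeR and 1 at an unadjusted p under 0.05.

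Energy genes, which the title of the study concerns in neurons, were also measured here. Of 36 nuclear-encoded subunits of respiratory complex I, 24 had a lower estimate in knockout over all members (median -0.13) and 27 in pericyte-gene members (median -0.16). In edgeR 0 of 36 passed, and 0 were at an unadjusted p under 0.05. Over all members 10 did not overlap below and 2 above (12% and 11.2% over all genes). In pericyte-gene members it was 7 below and 1 above (10.6% each over all genes). Ndufa7, a subunit of the complex, was at 362, 269 and 368 CPM in wild-type pericyte-gene members and 278 and 293 CPM in knockout, and overlapped. In pericyte-gene members the 36 genes summed to 9632, 8820 and 9255 CPM, then 8489 and 8664 CPM, with both knockout libraries lowest. Over all members the sums were 9412, 8954 and 9629 CPM, then 8869 and 9009 CPM, and the genotypes overlapped.

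Of the 13 mitochondrially encoded genes 11 had a higher estimate in both sets (medians 0.21 and 0.33), with 0 called by edgeR. At an unadjusted p under 0.05 there were 0 over all members and 1 in pericyte-gene members. Without overlap above were 6 over all members (11.2% over all genes) and 5 in pericyte-gene members (10.6% over all genes). In pericyte-gene members mt-Co1, a cytochrome oxidase subunit, was at 6157, 6577 and 6611 CPM, then 8754 and 7941 CPM. The mitochondrial share of UMIs, a quality measure as well, moved with them, with medians of 5.77%, 5.55% and 4.79% in wild-type members and 6.48% and 6.11% in knockout (5.37 ± 0.512 SD, n = 3, against 6.30 ± 0.262 SD, n = 2; exact permutation p = 0.2). Its part in these values was not tested.

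Glycolytic genes were mixed over all members, with 10 of 18 higher (median 0.05), 0 called by edgeR and 2 at an unadjusted p under 0.05. In pericyte-gene members 9 of 13 had a lower estimate (median -0.24, against 0.0015 over all genes), and 5 did not overlap below (10.6% over all genes). Pgk1, a kinase that makes ATP in glycolysis, was at 176, 169 and 133 CPM, then 113 and 72.3 CPM (log2 fold change -0.82, SE 0.32). Aldoa, an aldolase, was at 476, 467 and 387 CPM, then 292 and 332 CPM (-0.50, SE 0.23). Interferon and MHC class I genes had 5 of 9 higher over all members (median 0.04) and 3 of 5 in pericyte-gene members (median 0.14). Inflammatory mediators had 9 of 16 (median 0.06) and 7 of 11 (median 0.13), with 0 called by edgeR and 0 at an unadjusted p under 0.05 in each. Il34, a cytokine that microglia need, was at 228, 269 and 253 CPM in wild-type pericyte-gene members and 159 and 243 CPM in knockout.

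**Figure D5:**
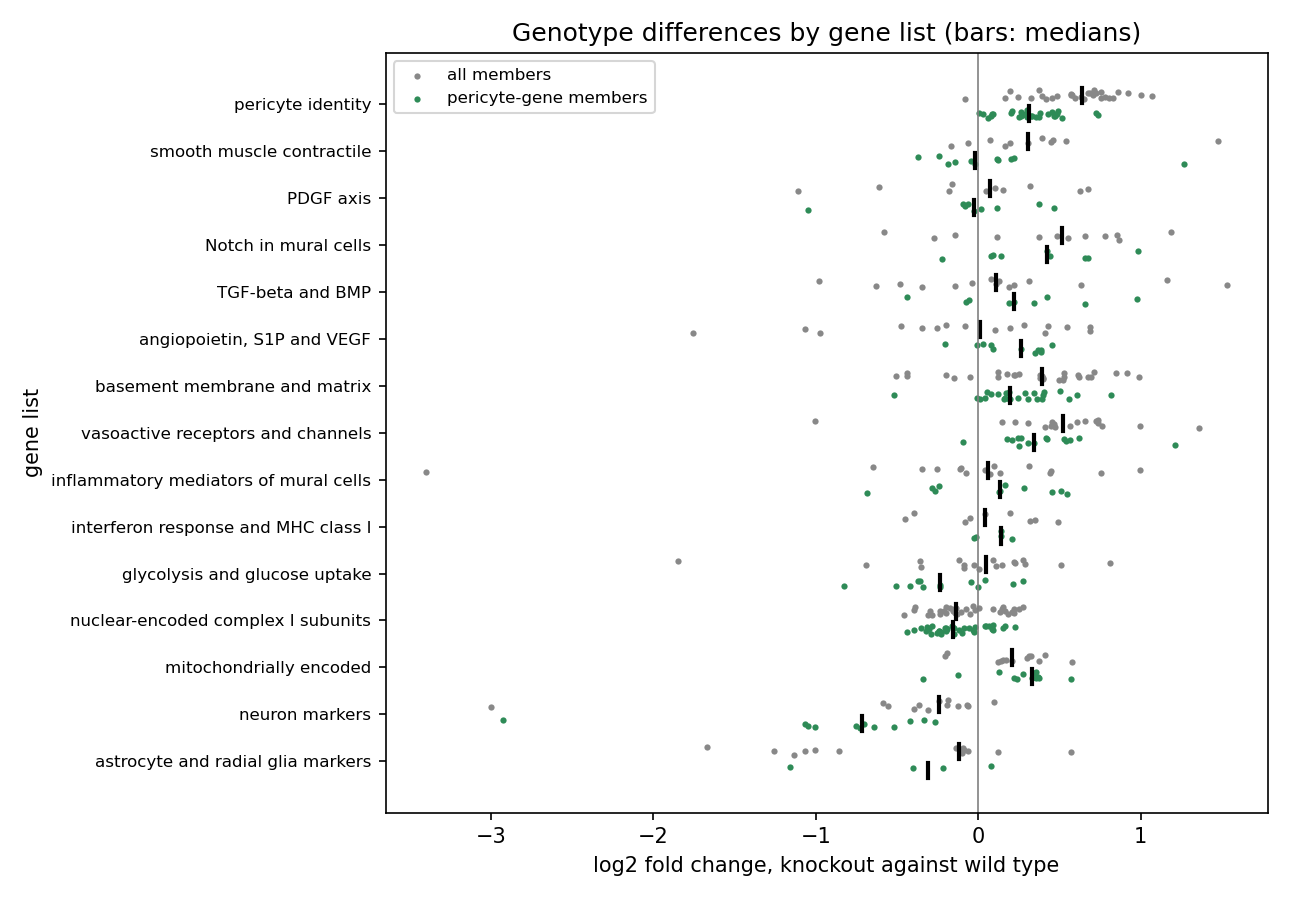
Each point is a gene of a list, placed by its log2 fold change in knockout against wild type over all members (grey) or pericyte-gene members (green), and black bars give medians. The identity list lies to the right of 0 (medians 0.64 and 0.31), neuron markers lie to the left (-0.24 and -0.72), and no gene shown passed edgeR's adjusted threshold.

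The genotype difference over all members, glial-gene members included, was tested against that in endothelial cells. The model held both cell groups and the library as a block. In edgeR 0 of 9015 genes passed (0%), and 309 were at an unadjusted p under 0.05 (3.43%). The smallest p belonged to Ube2c, a gene of dividing cells, with a difference between the 2 effects of 1.63 (SE 0.31, edgeR adjusted p = 1), then to Cenpf at 1.34 (SE 0.31). Igfbpl1 was among the 6 smallest, at -2.05 (SE 0.48). Its lower level in knockout members was thus not shown to differ from that in endothelial cells. With pericyte-gene members in place of all members, 0 of 8278 genes passed and 378 were at an unadjusted p under 0.05. The 21 genes of dividing cells summed to 927.5, 715 and 1968 CPM in wild-type glial-gene members and 4228 and 2727 CPM in knockout. In pericyte-gene members they summed to 1590, 1250 and 1176 CPM, then 2127 and 1124 CPM. The part of glial-gene members in this result was not tested.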

How the data were processed

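Counts of UMIs per gene and barcode were used as deposited, whole numbers for 32285 features. Per the labels' protocols, papain-dissociated hippocampus went into a droplet 3' kit. Per the submitters' processing notes, Cell Ranger 6.1 and mm10 were used, and the file headers give version 6.1.1. The annotation release behind them is not stated in these sources.

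The members, gene lists and tests were chosen with earlier results of these data known. UMIs were summed per library over member cells and tested with edgeR 4.0.16 (TMM, filterByExpr, a genotype term alone, Benjamini-Hochberg adjustment, threshold 0.05), on R 4.3.3. The alternative was DESeq2 1.42.0. Fold changes are edgeR estimates in log2. CPM are computed on raw sums. For shares, an exact permutation test over libraries was run, two-sided. Endothelial cells (335) had at least 4 UMIs of Cldn5, Pecam1, Flt1 and Cdh5, fibroblasts (563) at least 8 of Dcn, Col1a1, Col1a2 and Lum, and excitatory neurons (13391) at least 4 of Neurod2, Neurod6 and Bhlhe22. Each needed at least 2 of its genes and few UMIs of the others. Doublets were kept in the main results. In an alternative the cells with the highest Scrublet scores (scanpy 1.11.5) were removed, up to 0.8% per 1000 barcodes. The 5 libraries held 6512 to 10582 barcodes and 60024793 to 91205882 UMIs. The fitting code was tested on simulated data.

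Named genes were Trem2, the 6 rule genes, genes past the threshold or else the 3 smallest p a direction, up to 8 genes a list by level and 2 by p, up to 15 genes high in members and up to 10 high in smooth muscle members. The ratios used pseudocounts of 5 CPM (high in members) and 50 CPM (high in smooth muscle members). Kcnj8, Abcc9, Pdgfrb, Rgs5, Cldn5 and Dcn stayed in the fit. Alternatives covered size factors, the low-count filter, the replicate block, the number of males, cell limits, doublets, subsets of members and each library left out. The pericyte-gene set was added after the data were seen. The sequences of genes were not used here.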

Additional observations from a re-analysis of the deposited data

How the results depend on the processing

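The count of genes called between genotypes was 0 in edgeR over all members, and stayed 0 with other size factors, doublets removed, a 5% mitochondrial limit, the number of males as a covariate, smooth muscle members left out, members with endothelial UMIs left out, and the pericyte-gene members, a set chosen after seeing the data. It was 5 with DESeq2, 10 with at least 8 marker UMIs, 158 with genes of low counts kept and, with 1 library left out, 0 to 141. The test against endothelial cells called 25 genes with no filter and 0 otherwise, including with each library left out. Differences in shares (knockout minus wild type) kept p of 0.3 or more in each alternative tested. With 1 library left out the difference was -0.421 to 0.0785 percentage points for the members' share, -2.45 to 6.98 for the smooth muscle share, -3.90 to 4.53 for the dividing share, -1814 to -253.5 UMIs for the median depth and -516.5 to -91.0 for the median number of genes. Without thinning the dividing share was -5.78 points apart (p = 0.8 by the exact permutation test). In pericyte-gene members the depth was 568.8 UMIs apart in the other direction. The cause of these shifts was not tested. Of 775 refits of the 50 genes with a fold change, 708 kept their side, 36 crossed the threshold and 31 changed sign with no call in either fit.

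With the replicate number as a replicate block, edgeR called 30 genes over all members (4 higher, 26 lower) and 54 in pericyte-gene members. Same-numbered libraries correlated by 0.067 and 0.111 in their deviations, only 2 pairs, and no label ties them to a litter or day, so the numbers do not show pairs.

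With 29 to 119 members a library, depth limits the test, and 0 calls do not show that genes were alike. A gene at a few CPM rests on a few UMIs, and counts of cells or UMIs carry counting error beside the spread between libraries. Knockout rests on 2 libraries.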

Other observations

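Other genes of known vascular roles were also measured in the pericyte-gene members, and are given as levels only. Gja4 (connexin 37, a gap junction gene) was at 699, 333 and 414 CPM in wild type and 358 and 585 CPM in knockout, against 39.9 to 152 CPM in endothelial cells. S1pr3, a receptor of the lipid sphingosine-1-phosphate, was at 264, 111 and 210 CPM, then 185 and 280 CPM, against at most 36.0 CPM in fibroblasts. Neither gene separated the genotypes.

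Ifitm3, an interferon-induced membrane protein, was at 870.0, 660.1 and 886 CPM in wild type and 835 and 957 CPM in knockout, against 1.62 to 6.84 CPM in excitatory neurons. The 22 interferon and MHC class I genes, which include it, summed to 1484 to 2190 CPM in pericyte-gene members. Fibroblasts gave 1369 to 1652 CPM and endothelial cells 975 to 1327 CPM for the same list, so it was not particular to pericyte-gene members. Lgals1 (galectin 1) was at 632, 356 and 507 CPM, then 623 and 510 CPM, against 1199 to 1901 CPM in fibroblasts. Igfbp7, a secreted growth factor binding protein, was at 1642, 1624 and 2159 CPM, then 1935 and 1973 CPM, against 1222 to 1624 CPM in endothelial cells and at most 62.7 CPM in fibroblasts.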
